A study of Mus musculus with 4 samples.

Results

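The tenascins (Tnc, Tnn, Tnxb, Tnr) and thrombospondins 1 to 4 (Thbs1, Thbs2, Thbs3, Thbs4), secreted glycoproteins of the extracellular matrix, were followed in mouse peritoneum during irritation by chlorhexidine gluconate. They were taken by gene name and make up 8 of 18193 genes named on the array, with 12 of its 45037 probe sets, and the families were chosen from the chlorhexidine differences of their genes on these same 4 arrays. Their levels are therefore given as a description, with no test. Total RNA of the parietal peritoneum, the lining of the abdominal wall, came from C57BL/6J mice and was hybridised to Affymetrix expression arrays. The 4 groups, named here by their labels, were SAP-BNP-Tg mice given chlorhexidine gluconate (CG_Tg), wild-type mice given chlorhexidine gluconate (CG_WT), SAP-BNP-Tg mice given ethanol/PBS (PBS_Tg) and wild-type mice given ethanol/PBS (PBS_WT). SAP-BNP-Tg mice carry brain natriuretic peptide (BNP), a hormone that raises cyclic GMP, behind the serum amyloid P promoter, which is active in liver. Chlorhexidine was injected into the peritoneal cavity as a 0.1% solution in 15% ethanol and 85% PBS, at 0.01 mL per gram of body weight, 3 times per week for 21 days. The proportions, volume and schedule of the ethanol/PBS injections, the age of the mice and the number of mice behind an array are not in the sources used here. Each group was 1 array, so no difference below has a replicate check and none carries a p-value.

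Tenascins are large subunits built of EGF-like and fibronectin type III repeats that end in a fibrinogen-like globe. Tenascin C (Tnc) is scarce in most adult tissue and is laid down in wounds and scars, tenascin W (Tnn) is known from bone and tumour stroma, tenascin X (Tnxb) from loose connective tissue, and tenascin R (Tnr) from the nervous system. Thrombospondins 1 and 2 form trimers whose type I repeats bind the receptor Cd36 and restrain angiogenesis. Thrombospondin 1 can also activate latent TGF-beta. Thrombospondins 3 and 4 lack the type I repeats and assemble as pentamers, and thrombospondin 4 is abundant in tendon and muscle.

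The RefSeq promoters (GRCm38.p6) are shown for 4 members that differ in their pattern. Tnc, Tnn and Thbs2 were lower in CG_Tg than in CG_WT by the size rule used below, and Thbs3 was higher with chlorhexidine by a similar amount in both genotypes. Promoters were listed for 7 of the 8 members, all but Thbs1, and the 250 bases before a start are printed 5′ to 3′ on the gene's strand. Capitals mark matches on either strand to 5 motifs, and no match of one motif overlapped another. The letters of a TATA box were searched as TATAAA at any position. The GC box, the core bound by Sp1, was searched as GGGCGG. The Smad core was searched as CAGAC. The AP-1 site was searched as TGANTCA, with N for any base. The CArG box of serum response factor was the remaining motif.
Tnc (chr4:64046937-64047186, minus strand): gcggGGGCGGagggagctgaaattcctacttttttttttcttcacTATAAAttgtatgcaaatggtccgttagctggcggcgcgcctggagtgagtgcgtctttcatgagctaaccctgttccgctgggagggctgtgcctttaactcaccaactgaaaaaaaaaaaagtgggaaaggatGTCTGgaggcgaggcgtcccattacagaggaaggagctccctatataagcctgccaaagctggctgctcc
Tnn (chr1:160153576-160153825, minus strand): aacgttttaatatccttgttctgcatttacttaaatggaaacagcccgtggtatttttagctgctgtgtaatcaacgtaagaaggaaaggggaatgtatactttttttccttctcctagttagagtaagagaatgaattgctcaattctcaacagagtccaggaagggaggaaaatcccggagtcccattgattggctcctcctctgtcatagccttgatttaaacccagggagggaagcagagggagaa
Thbs2 (chr17:14694263-14694512, minus strand): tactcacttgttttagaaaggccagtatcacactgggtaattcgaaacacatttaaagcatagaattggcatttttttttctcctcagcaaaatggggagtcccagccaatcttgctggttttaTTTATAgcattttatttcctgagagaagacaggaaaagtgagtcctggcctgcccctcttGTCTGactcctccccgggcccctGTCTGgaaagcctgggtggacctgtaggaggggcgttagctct
Thbs3 (chr3:89214930-89215179, plus strand): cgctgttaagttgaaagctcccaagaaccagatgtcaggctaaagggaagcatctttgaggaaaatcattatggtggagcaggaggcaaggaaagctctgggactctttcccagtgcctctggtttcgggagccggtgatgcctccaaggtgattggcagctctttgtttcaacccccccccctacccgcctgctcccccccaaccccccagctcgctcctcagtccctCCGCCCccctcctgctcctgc
The Tnc window held 1 match each to the TATAAA, GC box and Smad core letters, and the Thbs2 window held 1 TATAAA match and 2 Smad cores. The TATAAA match began 205 bases before the start in Tnc, and 126 bases before it and on the opposite strand in Thbs2, so neither is given here as a TATA box. These are matches of letters alone. The letters tatataag near the end of the Tnc window do not match TATAAA and were left unmarked. The search therefore does not show that Tnc lacks a TATA box. The Thbs3 window held 1 GC box. None of the 5 motifs was found in the Tnn window. The RefSeq span of Tnn reaches base 160153692, inside this window, so part of the printed bases lies within the gene. Tnc has a further listed start 79 bases upstream, whose window overlaps the one printed. The TATAAA letters were present in 12.4% of all 32851 listed windows of this length, the GC box in 32.7%, the Smad core in 42.2%, the AP-1 site in 6.75% and the CArG box in 1.47%. Among the 7 members with a listed promoter the AP-1 site was found in the window of Tnxb, and the CArG box in none of their windows. The Tnxb window lies wholly within the RefSeq span of its gene. Thbs1 had no listed promoter and was not searched.

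The arrays called 53.5% (CG_Tg), 55.1% (CG_WT), 52.5% (PBS_Tg) and 50.5% (PBS_WT) of probe sets Present, the authors' call that a transcript was detected. Control probe sets set PBS_WT apart. For 18S rRNA they averaged 1052 there, against 81.5 to 108 on the remaining arrays. For beta-actin the 3-prime probe set was 5.81 times as bright as the middle one on PBS_WT, and 2.23 to 2.84 times on the remaining arrays. The part of this in the wild-type differences was not tested, so each member's values against the other genotype's vehicle array are given too. Such values are not given for the receptors, partners and transcription factors below, whose wild-type chlorhexidine calls all rest on PBS_WT. Nppb, which encodes BNP, was not called Present on any array, and these arrays thus do not check the genotype labels. Signals are on a linear scale after each array was brought to a common trimmed mean. Calls of higher or lower here need a 2-fold difference, a Present call where the signal is brighter, and a brightness there of at least the 25th percentile of Present probe sets, which lay between 34.5 and 35.4.

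Apart from Tnr, which was near the limit of detection, every member had a higher signal on the chlorhexidine array than on the vehicle array in both genotypes. By the size rule 3 of 8 members were higher in transgenic mice, where 3.81% of 12754 genes were, and 5 of 8 in wild type, where 8.22% of genes were. Tnn and Thbs3 were called in both genotypes, Thbs4 in transgenic mice, and Tnc, Thbs1 and Thbs2 in wild type. Of all 12754 genes, 387 were called higher in both genotypes. No member was called lower, where 1.4% of genes were in transgenic mice and 4.93% in wild type. The members' median log2 difference was 1.01 in transgenic mice and 1.71 in wild type, where that over all genes was near 0 in both. Tnn and Tnr entered these counts through the arrays on which they were detected, and the other 6 members were Present on all 4 arrays. The medians are over all 8 members and so rest in part on undetected signal. Tnn was Absent on both vehicle arrays. Tnr entered at 3.49 in transgenic mice, over an Absent vehicle signal, and at 1.07 in wild type, where both arrays were Absent.

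**Figure D1:**
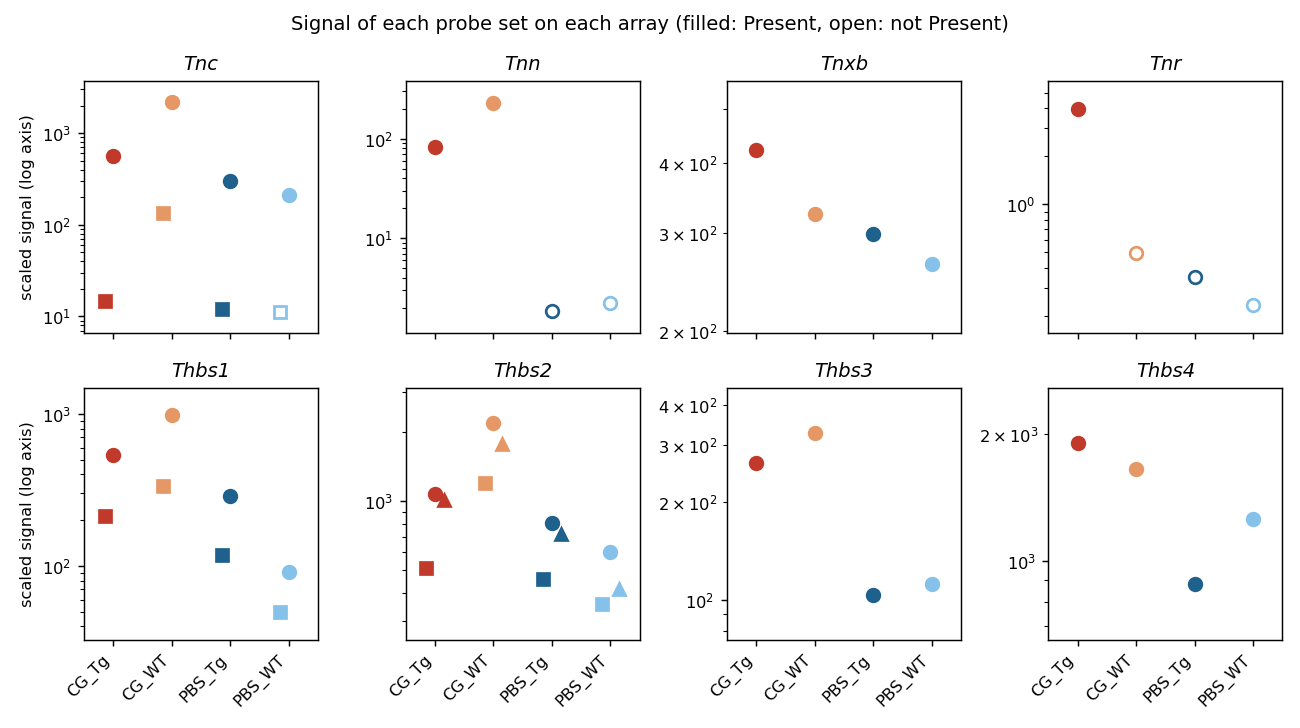
Scaled signal (log axis, range set for each gene) of the 12 probe sets of the 8 members on the 4 arrays, 1 array per group, with no error bars. Circles are the probe set used for the gene, squares and triangles its other probe sets, and open symbols were not called Present. Tnc, Thbs1 and Thbs2 are highest on CG_WT, Tnn is detected on the chlorhexidine arrays alone, and Thbs4 is highest on CG_Tg.

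Tenascin C, the wound tenascin, had a signal of 565 on CG_Tg and 2188 on CG_WT, against 299.8 on PBS_Tg and 212 on PBS_WT (probe set 1416342_at, Present on all 4). CG_WT stood far above the other arrays, and CG_Tg lay closer to the vehicle arrays than to CG_WT. The chlorhexidine difference was 1.89-fold in transgenic mice (log2 0.92, rank 898 from the top of 12754 genes) and 10.3-fold in wild type (log2 3.36, rank 79). Against the other genotype's vehicle array it was 2.66-fold in transgenic mice, which passes the size rule, and 7.30-fold in wild type. Tnc was 3.87-fold lower in CG_Tg than in CG_WT, and 1.41-fold higher in PBS_Tg than in PBS_WT. A dimmer probe set of Tnc (1456344_at) had 14.9 on CG_Tg and 133 on CG_WT, against 12.1 on PBS_Tg and 11.1 on PBS_WT, where it was Absent. It gave the same order of the chlorhexidine arrays, with CG_Tg 8.97-fold lower than CG_WT, while its chlorhexidine difference was 1.23-fold in transgenic mice and at least 11.97-fold in wild type. On this probe set 3 arrays lay close together and CG_WT alone was bright.

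Tenascin W was detected with chlorhexidine and not with vehicle. Its probe set (1442140_at) had 83.5 on CG_Tg and 231 on CG_WT, both Present, against 1.84 on PBS_Tg and 2.22 on PBS_WT, both Absent. The authors' detection p-value was 0.805 on PBS_Tg and 0.754 on PBS_WT. The vehicle arrays therefore give a bound, taken at their lowest Present signal, 3.25 on PBS_Tg and 2.93 on PBS_WT. The difference was at least 25.7-fold in transgenic mice and at least 78.8-fold in wild type. Tnn was 2.76-fold lower in CG_Tg than in CG_WT, the 1 comparison of genotypes in which it was measured on both arrays. The CG_Tg call was weaker, with a detection p-value of 0.0142 against 0.000244 on CG_WT. With the vehicle arrays exchanged, the bounds were at least 28.5-fold in transgenic mice and at least 71.04-fold in wild type. The size of its chlorhexidine difference depends on undetected signal, and with 32 added to every signal it was 1.77 in transgenic mice and 2.94 in wild type on the log2 scale.

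Tenascin X, the tenascin of resting connective tissue, differed little. Tnxb had 421 on CG_Tg and 323 on CG_WT, against 298 on PBS_Tg and 264 on PBS_WT. The chlorhexidine arrays were the brighter ones, by 1.41-fold in transgenic mice and 1.22-fold in wild type, and within each treatment the transgenic array was the brighter one. With the vehicle arrays exchanged these were 1.59-fold in transgenic mice and 1.08-fold in wild type, and none of these values reached the size rule. Tenascin R, the neural form, was called Present on CG_Tg at a signal of 3.94 (detection p-value of 0.0376) and Absent at 0.492 on CG_WT, 0.351 on PBS_Tg and 0.234 on PBS_WT. Its single Present signal lies far under the floor of 35.4 on that array, so Tnr was not called in any comparison and no fold is drawn from it beyond at least 1.21 against PBS_Tg, at least 1.35 against PBS_WT and at least 2.002 against CG_WT. Of 4 measured Schwann and neural markers, Mbp, the myelin protein, was Present on every array and Snap25, a neuronal protein, on none. Their summed signal was 281 on CG_Tg and 202 on CG_WT, against 373 on PBS_Tg and 459 on PBS_WT, a sum made up mostly of Mbp. The markers did not share a direction. Sox10 had 40.9 on CG_Tg and 30.6 on CG_WT, against 30.1 on PBS_Tg and 30.0 on PBS_WT (not Present). S100b was lower on both chlorhexidine arrays than on the vehicle arrays, as Mbp was.

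Thrombospondin 1, the TGF-beta activating member, had 540 on CG_Tg and 984 on CG_WT, against 287 on PBS_Tg and 91.1 on PBS_WT (1460302_at). Here CG_WT was the brightest array and PBS_WT stood below all the others. The chlorhexidine difference was 1.88-fold in transgenic mice (rank 904) and 10.8-fold in wild type (rank 73). Exchanging the vehicle arrays changed both values, to 5.93-fold in transgenic mice and 3.43-fold in wild type. Thbs1 was 3.15-fold higher in PBS_Tg than in PBS_WT, the 1 member of 8 called in that comparison, in which 0.957% of genes were higher. With the scaling as deposited it was again the 1 member called, where 459 of 12754 genes were higher, against 122 as reported. In CG_Tg it was 1.82-fold lower than in CG_WT, under the size rule. A second probe set (1450377_at) had 213 on CG_Tg and 334 on CG_WT, against 118 on PBS_Tg and 49.4 on PBS_WT. It kept the order of the arrays and gave 1.80-fold in transgenic mice and 6.76-fold in wild type.

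Another probe set (1421811_at) is described in the array files as Thbs1 and carries the symbols of both Thbs1 and Pald1 in the platform annotation, so it was left out of the gene's value. It had 1289 on CG_Tg and 1814 on CG_WT, against 783 on PBS_Tg and 428 on PBS_WT, again in the same order. Its chlorhexidine difference was 1.65-fold in transgenic mice and 4.23-fold in wild type, and its vehicle arrays differed by 1.83-fold (PBS_Tg over PBS_WT), which is under the size rule. The higher signal of Thbs1 in PBS_Tg thus passed the rule on both probe sets with a single symbol and missed it on this one.

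Thrombospondin 2, which limits angiogenesis and the level of the gelatinase Mmp2, followed Tnc on a smaller scale. Its probe set 1422571_at had 1078 on CG_Tg and 2203 on CG_WT, against 808 on PBS_Tg and 602 on PBS_WT. The chlorhexidine difference was 1.33-fold in transgenic mice (rank 2532) and 3.66-fold in wild type (rank 404). With the vehicle arrays exchanged it was 1.79-fold in transgenic mice, still under the size rule, and 2.73-fold in wild type. CG_Tg was 2.04-fold lower than CG_WT, close to the 2-fold line. For chlorhexidine, probe set 1447862_x_at gave 1.12-fold in transgenic mice and 3.39-fold in wild type, and probe set 1450663_at gave 1.401-fold in transgenic mice and 4.30-fold in wild type. CG_Tg was 2.36-fold lower than CG_WT on the first of these and 1.75-fold lower on the other, so 2 of the 3 probe sets passed the size rule. All 3 placed the arrays in the same order, with CG_WT highest and PBS_WT lowest.

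Thrombospondin 3, a pentameric form known from skeletal growth, differed by treatment and little by genotype. Thbs3 had 265 on CG_Tg and 328 on CG_WT, against 104 on PBS_Tg and 112 on PBS_WT. Both chlorhexidine arrays lay well above both vehicle arrays. The difference was 2.56-fold in transgenic mice and 2.93-fold in wild type, and with the vehicle arrays exchanged it was 2.36-fold in transgenic mice and 3.17-fold in wild type. Thbs3 was 1.24-fold lower in CG_Tg than in CG_WT and 1.08-fold lower in PBS_Tg than in PBS_WT.

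Thrombospondin 4, the form of tendon and muscle, was the member with the larger chlorhexidine difference in transgenic mice among those Present on all arrays and called in a genotype. Thbs4 had 1901 on CG_Tg and 1650 on CG_WT, against 879 on PBS_Tg and 1258 on PBS_WT. The chlorhexidine arrays were alike and the vehicle arrays spread more. The difference was 2.16-fold in transgenic mice and 1.31-fold in wild type. With the vehicle arrays exchanged it was 1.51-fold in transgenic mice, which is under the size rule, and 1.88-fold in wild type. Of 6 markers of tendon and cartilage 4 were Present on CG_Tg and 5 on CG_WT, against 5 on PBS_Tg and 4 on PBS_WT. Their summed signal was 2538 on CG_Tg and 2105 on CG_WT, against 3175 on PBS_Tg and 2693 on PBS_WT, a sum made up mostly of Fmod and Tnmd and lower on the chlorhexidine arrays. The tendon transcription factors did not follow the sum. Mkx had 46.1 on CG_Tg and 59.6 on CG_WT, against 26.7 on PBS_Tg and 21.0 on PBS_WT, and Scx had 23.5 on CG_Tg (Absent) and 44.7 on CG_WT, against 26.5 on PBS_Tg and 29.3 on PBS_WT (Absent). The part of tendon cells in the Thbs4 values was not tested. Col2a1, the cartilage collagen, was Absent on all 4. Comp, the remaining thrombospondin and a protein of cartilage and tendon, had 213 on CG_Tg and 168 on CG_WT, against 198 on PBS_Tg and 149 on PBS_WT, which is 1.08-fold higher with chlorhexidine in transgenic mice and 1.13-fold in wild type.

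**Figure D2:**
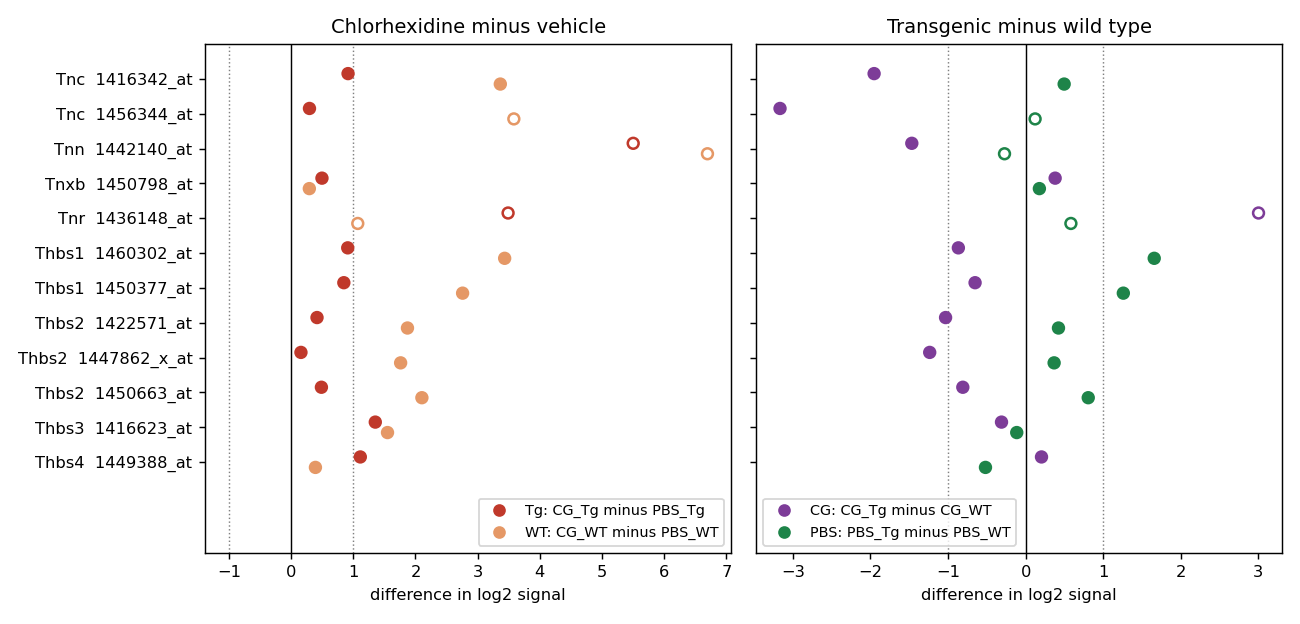
Differences in log2 signal for each of the 12 probe sets, on the left chlorhexidine minus vehicle in transgenic and wild-type mice and on the right transgenic minus wild type under chlorhexidine and under vehicle. Open symbols rest on at least 1 array without a Present call, and dotted lines mark 2-fold. The probe sets of Tnc, Thbs1 and Thbs2 lie further right in wild type than in transgenic mice, those of Thbs3 nearly coincide, and that of Thbs4 lies further right in transgenic mice.

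Between the chlorhexidine arrays, Tnc, Tnn and Thbs2 were lower in CG_Tg, 3 of 8 members where 0.964% of genes were lower, and no member was higher, where 0.784% of genes were. The log2 difference, transgenic minus wild type, was -1.95 for Tnc, -1.47 for Tnn and -1.03 for Thbs2. Between the vehicle arrays it was 0.50 for Tnc, -0.27 for Tnn (Absent on both) and 0.42 for Thbs2. The contrast between the genotypes, the transgenic chlorhexidine difference minus the wild-type one, was at least 2-fold and negative for 4 of 8 members, where 2.96% of genes were. With the scaling as deposited 4 members passed again, but so did 10.3% of genes, and the median of all genes was -0.44. As reported, the contrast was -2.52 for Thbs1, -2.45 for Tnc, -1.45 for Thbs2 and -1.19 for Tnn, the last resting on undetected vehicle signal. For Thbs1 the vehicle arrays held the larger part (1.66, against -0.87 under chlorhexidine), and for Tnc and Thbs2 the chlorhexidine arrays did. With the vehicle arrays exchanged, the log2 chlorhexidine difference of Thbs1 was larger in transgenic mice (2.57) than in wild type (1.78), the opposite order. For Thbs3 it was -0.20, for Tnxb 0.20 and for Thbs4 0.72. These contrasts share arrays with each other and no test of them can be made, since the model that holds them leaves no residual degrees of freedom.

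Markers of connective tissue, immune and fat cells also differed between the arrays. The summed signal of 6 fibroblast markers, all Present on every array, was 20526 on CG_Tg and 23642 on CG_WT, against 14493 on PBS_Tg and 14065 on PBS_WT. That of 6 macrophage markers, also all Present, was 4433 on CG_Tg and 4500 on CG_WT, against 2871 on PBS_Tg and 2705 on PBS_WT. Platelets store Thbs1, and the summed signal of 5 measured platelet and megakaryocyte markers was 1085 on CG_Tg and 823 on CG_WT, against 687 on PBS_Tg and 738 on PBS_WT. Most of that sum was Pf4 and Ppbp. Itga2b, the platelet integrin alpha chain, had 63.4 on CG_Tg and 85.9 on CG_WT, against 35.3 on PBS_Tg and 35.4 on PBS_WT, and so was highest on CG_WT, as Thbs1 was. The sum was highest on CG_Tg, and so were Pf4, Ppbp (242 on CG_Tg, 91.2 on CG_WT) and Gp9 (Present on CG_Tg alone). Pf4, a platelet chemokine, was Present on every array and the platelet collagen receptor Gp6 on none. Of 4 measured adipocyte markers the sum was 8088 on CG_Tg and 5984 on CG_WT, against 11072 on PBS_Tg and 10746 on PBS_WT. One of them, leptin (Lep), was Present on the vehicle arrays alone. The 5 endothelial markers, all Present on every array, summed to 736 on CG_Tg and 872 on CG_WT, against 704 on PBS_Tg and 659 on PBS_WT. Among them the VEGF receptor Kdr had 66.7 on CG_Tg and 176 on CG_WT, against 83.3 on PBS_Tg and 65.9 on PBS_WT, with CG_WT far above the rest. The endothelial markers did not share a pattern. Pecam1 was also highest on CG_WT, while Vwf was highest on CG_Tg, Tek on PBS_Tg and Cdh5 on PBS_WT. The 8 mesothelial markers, all Present on every array, summed to 594 on CG_Tg and 402 on CG_WT, against 536 on PBS_Tg and 689 on PBS_WT. They did not share a direction. Wt1 had 52.3 on CG_Tg and 60.7 on CG_WT, against 21.8 on PBS_Tg and 31.5 on PBS_WT. Krt8 was also higher with chlorhexidine in both genotypes, Upk3b and Lrrn4 were lower in both, and the rest were higher in transgenic mice and lower in wild type. The 7 skeletal muscle markers were Present on every array, at 56926 on CG_Tg and 56945 on CG_WT, against 53759 on PBS_Tg and 65904 on PBS_WT, so the tissue labelled peritoneum held muscle on all 4. The part of these cell types in the members' values was not tested. In such whole tissue, more cells of a type and more RNA per cell cannot be told apart.

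Among 21 receptors listed for these proteins, Itgb3 and Lrp1 were higher with chlorhexidine in both genotypes, as were 387 of all 12754 genes. Of 20 Present on at least 1 array, 2 were higher with chlorhexidine in transgenic mice and 5 in wild type, none was lower, and the median log2 difference was 0.12 in transgenic mice and 0.47 in wild type, beside medians near 0 over all genes, of which 3.81% were higher in transgenic mice and 8.22% in wild type. Itgb3, the integrin beta chain that with the alpha v chain binds both families, had 63.9 on CG_Tg and 46.3 on CG_WT, against 28.3 on PBS_Tg and 18.1 on PBS_WT. Lrp1, the scavenger receptor that takes up thrombospondins, had log2 differences of 1.03 in transgenic mice and 1.10 in wild type. Another 3 receptors passed the rule in wild type and missed it in transgenic mice. Their log2 differences were 0.30 in transgenic mice and 1.13 in wild type for the integrin beta chain Itgb1, and 0.64 in transgenic mice and 1.23 in wild type for the EGF receptor Egfr. For Tlr4, a receptor for the tenascin C fibrinogen globe, they were 0.98 in transgenic mice and 1.18 in wild type. Transgenic minus wild type, the chlorhexidine arrays differed by -0.06 for Itgb1, -0.20 for Egfr and 0.14 for Tlr4. The vehicle arrays differed more, by 0.76 for Itgb1, 0.39 for Egfr and 0.33 for Tlr4, with PBS_WT the dimmer. Cd47, the receptor for the thrombospondin carboxyl end, had a log2 difference of 0.70 in transgenic mice and 0.83 in wild type. That of Cd36, which binds the type I repeats, was -0.49 in transgenic mice and -0.42 in wild type. That of Itga9, which pairs with Itgb1 to bind tenascin C, was -0.05 in transgenic mice and 0.42 in wild type. Itgb6 was higher in PBS_Tg than in PBS_WT, with a log2 difference of 1.31.

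Among matrix proteins and proteases that bind or cut these members, none was called lower with chlorhexidine in either genotype. Of 11 Present on at least 1 array from a list of 13, 5 were higher in transgenic mice and 8 in wild type, with a median log2 difference of 0.50 in transgenic mice and 1.64 in wild type. Over all genes 3.81% were higher in transgenic mice and 8.22% in wild type, with medians near 0. The 5 called in both were Postn, Vcan, Col1a1, Fn1 and Mmp2, where 387 of all 12754 genes were called higher in both. The log2 difference of periostin (Postn), which binds tenascin C, was 2.30 in transgenic mice and 2.78 in wild type. That of the proteoglycan versican (Vcan) was 2.23 in transgenic mice and 3.24 in wild type, and that of collagen I (Col1a1) 2.02 in transgenic mice and 2.44 in wild type. Fibronectin (Fn1) differed by 1.496 in transgenic mice and 2.06 in wild type, and the gelatinase Mmp2 by 1.36 in transgenic mice and 1.98 in wild type. Another 3 passed in wild type and missed the rule in transgenic mice. Tgfb1, the growth factor that thrombospondin 1 activates, differed by 0.50 in transgenic mice and 1.54 in wild type. The fibril-associated collagen Col12a1 differed by 0.10 in transgenic mice and 1.09 in wild type, and Adamts1, a protease that cuts thrombospondins, by -0.15 in transgenic mice and 1.64 in wild type. Adamts1 was lower in CG_Tg than in CG_WT, with a log2 difference of -1.30. The lecticans Ncan and Bcan, ligands of tenascin R in brain, were Absent on all 4 arrays.

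Transcription factors known to act on Tnc or Thbs1 did not share a direction. Of 12 measured, 0 were higher and 1 was lower in transgenic mice, and 3 were higher and 1 lower in wild type, with median log2 differences of -0.38 in transgenic mice and 0.34 in wild type. Over all genes the medians were near 0, 3.81% were higher and 1.4% lower in transgenic mice, and 8.22% were higher and 4.93% lower in wild type. Egr1, an immediate early factor, had 700.4 on CG_Tg and 1496 on CG_WT, against 1138 on PBS_Tg and 367 on PBS_WT. Fos, a subunit of AP-1, had 1426 on CG_Tg and 2759 on CG_WT, against 3499 on PBS_Tg and 1094 on PBS_WT. Both were lowest on PBS_WT, as Thbs1 was, but unlike Thbs1 both were lower on CG_Tg than on PBS_Tg. The log2 difference of Myc, a repressor of Thbs1, was 0.93 in transgenic mice and 1.77 in wild type. That of Smad3, which carries TGF-beta signals, was -0.31 in transgenic mice and -1.05 in wild type, and that of Prrx1, a homeobox factor that activates Tnc, 0.42 in transgenic mice and 0.49 in wild type.

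**Figure D3:**
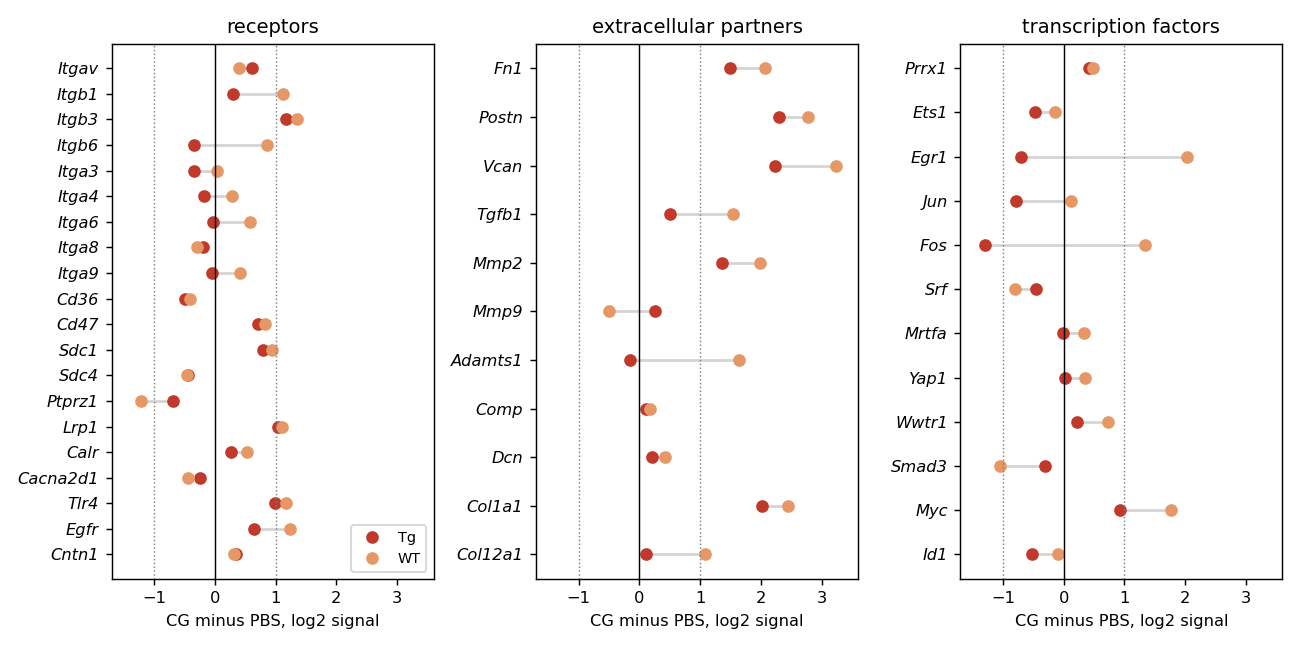
Difference in log2 signal, chlorhexidine minus vehicle, in transgenic (red) and wild-type (orange) mice for 20 receptors, 11 extracellular partners and 12 transcription factors, with 1 array per group and dotted lines at 2-fold. Most partners lie right of 0 in both genotypes, whereas Fos and Egr1 lie on opposite sides of 0 in the genotypes.

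Genes whose pattern was nearest to a member were found by the Euclidean distance between log2 signals centred on each gene's mean, over the 4 arrays. Distances of 4 values find close neighbours among 10405 candidates readily, and they describe these arrays alone. Nearest to Tnc were Tmem45a (distance 0.33), the secreted growth factor Ptn (0.41) and the lysyl hydroxylase Plod2 (0.45). Ptn had 112 on CG_Tg and 423 on CG_WT, against 43.1 on PBS_Tg and 32.4 on PBS_WT, with CG_WT far above the rest, as for Tnc. In transgenic mice its log2 chlorhexidine difference was 1.37, past 2-fold, where that of Tnc was 0.92. Nearest to Thbs1 were Stat2 (0.41), Glipr2 (0.42) and Rian (0.54), and nearest to Thbs2 were Plagl1 (0.07), Nfkbiz (0.14) and Cemip2 (0.15). Nearest to Thbs3 were Ncapg2 (0.04), Fxyd5 (0.04) and Oaf (0.07), nearest to Thbs4 Podn (0.09), Fgd2 (0.11) and Pcdhb16 (0.11), and nearest to Tnxb Lfng (0.04), Ang (0.05) and Gstcd (0.06). For Tnn the distances include vehicle signals below detection, its own and those of its neighbours, and have no reading beyond the chlorhexidine arrays. The nearest by this measure, among 11097 candidates, was the secreted protease-like Prss35 (0.76), with 22.1 on CG_Tg and 66.9 on CG_WT, against 0.965 on PBS_Tg and 0.819 on PBS_WT, followed by Slfn10-ps (1.75) and Ccl3 (2.35). For Tnr, whose signal was near 0, the nearest were Lct (0.60), Stfa2l1 (0.90) and Trim10 (0.99).

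**Figure D4:**
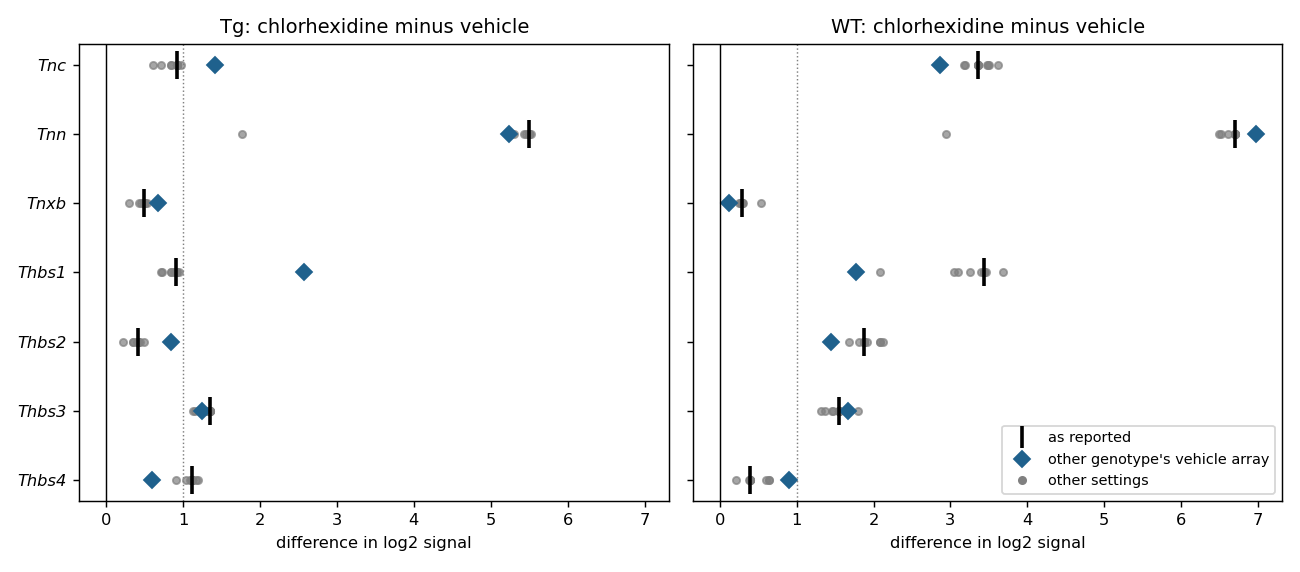
Difference in log2 signal, chlorhexidine minus vehicle, of 7 members in transgenic (left) and wild-type (right) mice under each processing setting, with the reported value as a bar, the value against the other genotype's vehicle array as a diamond and the other settings as dots. Tnr, near 0 signal, is not drawn. Thbs1 moves most with the vehicle array, and Thbs3 stays between 1.13 and 1.35 in transgenic mice and between 1.32 and 1.80 in wild type.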

How the data were processed

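Biotin-labelled RNA of parietal peritoneum was hybridised to 1 array per group, and groups were taken from the labels. Each array file gives, per the file headers, an expression signal for every probe set, which is a linear intensity made by the authors. The authors' Present, Marginal or Absent calls and detection p-values were deposited beside them, per the file headers. Which software made the signals, and to what target it scaled them, is not stated in the labels or headers. The series table held the same signals, with 0 values differing.

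Each array was multiplied to a common 2% trimmed mean over 45037 probe sets (64 controls left out), by 1.01 (CG_Tg), 0.984 (CG_WT), 0.877 (PBS_Tg) and 1.17 (PBS_WT). A floor of 0.1 was applied before log2. The platform annotation gave 1 symbol to 34945 probe sets, several to 932 and none to 9160. Of those with 1 symbol, 34754 were matched by gene identifier to RefSeq (GRCm38.p6) and took its symbol, whether or not it differed. Each gene was represented by its brightest probe set on average (log2), giving 18193 genes, 12754 of them Present on at least 1 array. Calls needed an absolute log2 difference of 1, a Present call where brighter, and a brightness there no lower than the 25th percentile among Present probe sets. If the dimmer array lacked a Present call, the fold is a lower bound against the higher of its lowest Present signal and the probe set's own. The number of arrays limits the precision.

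Named genes were the members, Comp, 3 lists (receptors, extracellular partners, transcription factors), from each list those called in both genotypes or in 1 of them with Itgb3, Itga9, Cd36, Cd47 and Tgfb1, and the 3 genes nearest to each member. Itgb6, Ncan, Bcan and Prrx1 were named after their values were seen. Members and lists were chosen with earlier results of these data known. Alternatives were other scalings (deposited, median, quantile, cyclic loess in statsmodels 0.14.6), a pseudocount of 32, other filters, other probe set rules, 1.5-fold and 3-fold limits and exchanged vehicle arrays. One with the shared Thbs1 probe set was chosen after seeing the data. Python 3.11.15 with pandas 2.3.3, numpy 2.4.6 and scipy 1.17.1 was used, and the calls were tested on simulated data.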

Additional observations from a re-analysis of the deposited data

Results flagged for a closer look

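The lists named above held 20 receptors, 11 extracellular partners and 12 transcription factors that were measured. Of these genes, 3 had chlorhexidine differences of opposite sign in the genotypes, with at least 1 of them past 2-fold. The share of all genes that did so was not counted. The contrast between the genotypes was not tested, and the vehicle arrays differ as well, as their signals above show. Egr1 was at -0.70 in transgenic mice and 2.03 in wild type on the log2 scale, a contrast of -2.73. Fos was at -1.29 in transgenic mice and 1.33 in wild type, a contrast of -2.63. Adamts1 was at -0.15 in transgenic mice and 1.64 in wild type, a contrast of -1.79. With chlorhexidine, no tenascin or thrombospondin had opposite signs in the genotypes. For Tnr those signs rest in part on undetected signal, and the families were chosen from their chlorhexidine differences.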

How the results depend on the processing

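No paired analysis was possible because each group is 1 array and the labels carry no replicate numbers, so no replicate could be left out. Of 62 recounts of called members under alternative settings, 57 stayed within 1.5 times the reported count. The recounts compare numbers and not which members were called. With the vehicle arrays exchanged, 4 members were higher in transgenic mice against 3 as reported, where 5.17% of all genes were. There Tnc and Thbs1 gained a call and Thbs4 lost its own. Members higher with chlorhexidine in transgenic mice numbered 5 at 1.5-fold and 1 at 3-fold, against 3 as reported, where 9.77% of all genes were higher at 1.5-fold, 1.16% at 3-fold and 3.81% as reported. At 3-fold, 1 member was called between the chlorhexidine arrays, against 3, where 0.22% of all genes were lower, and 2 for the contrast between the genotypes' chlorhexidine differences, against 4, where 0.925% were. These changes follow from the limit itself. With the shared probe set counted as Thbs1, an alternative chosen after seeing the data, 0 members were called between the vehicle arrays, against 1. Of 496 member differences under these settings, 472 stayed on the same side of the size rule, 15 lost their call and 9 gained one. None that was called changed sign. The fold limits, the filters and the rule against _s_at, _x_at and _a_at probe sets left every member's value as reported, so no sign could change there. The setting with the shared probe set moved Thbs1 alone. The contrast between the genotypes was not recomputed with the vehicle arrays exchanged. The uncalled vehicle difference of Thbs3 ranged from -0.17 to 0.30, that of Tnn from -0.37 to 0.14, and the contrast of Tnxb from -0.25 to 0.32, so these have no settled direction. Thbs4 missed the rule in transgenic mice with the deposited scaling (0.91), and Thbs2 missed it between the chlorhexidine arrays after median centring (-0.98). The median of all genes in wild type moved to 0.25 with the deposited scaling, -0.18 after median centring and -0.11 after quantile normalization, and between the vehicle arrays to 0.37 with the deposited scaling. Among all genes called with chlorhexidine in wild type, 62.5% were higher as reported, 83.3% with the deposited scaling and 41.9% after median centring, and in transgenic mice 73.2% as reported and 50.7% with the deposited scaling. Of those called between the vehicle arrays, 65.6% were higher in PBS_Tg as reported, 98.5% with the deposited scaling and 49.5% to 55.1% under the other scalings. Of those called between the chlorhexidine arrays, 44.8% were higher in CG_Tg as reported and 38.7% to 55.3% under other scalings. Of the genotype contrasts called, 40.4% were positive as reported, 5.95% with the deposited scaling and 55.1% to 56.6% under the others. Signals of Tnr and of Tnn under vehicle lie below detection, which limits their differences to bounds.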
